A study of Mus musculus with 6 samples.

Results

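Guanylin (Guca2a) and uroguanylin (Guca2b) are 2 of the 5674 genes measured in both tables of a single-cell RNA-sequencing study of the mouse jejunal epithelium, whose anterior and posterior tables held 6839 and 5831 genes. The pair was chosen by name, through the Ensembl identifiers of the tables, with results of these data by cell class, villus position and region already known. The values and fits below therefore describe the pair, and their p-values are no independent evidence for it. The anterior group was the third of 12 equal pieces of the small intestine and the posterior group the 7th, each taken from the same 3 mice aged 120 days on a mixed CD-1:C57BL/6 background, with no genotype or treatment given for either group. Equal parts of villus and crypt cells were pooled, sorted singly as EpCAM+ cells that excluded DAPI, and sequenced by MARS-seq, a plate method that barcodes every captured mRNA near its poly(A) tail (UMI, unique molecular identifier).

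Guanylin and uroguanylin are small peptide hormones that epithelial cells of the gut make as longer precursors and release mainly towards the lumen. Both bind the receptor guanylate cyclase C (Gucy2c) on the apical membrane, which makes cyclic GMP. Cyclic GMP acts through protein kinase G II (Prkg2) to open the chloride channel Cftr and to slow sodium uptake by the sodium-proton exchanger, so the pathway sets fluid and salt secretion. The receptor is also the target of bacterial heat-stable enterotoxins. Guanylin is known as the ligand of the distal gut and of goblet and absorptive cells, and uroguanylin as that of the proximal gut and of absorptive cells.

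The genes are direct neighbours on chromosome 4 of GRCm38. In GENCODE vM21, Guca2a (ENSMUSG00000023247) lies on the plus strand at chr4:119637704-119639471 and has 3 exons. Guca2b (ENSMUSG00000032978) lies on the minus strand at chr4:119656607-119658954, also with 3 exons. Their 3' ends face each other across 17135 bases, with 0 annotated genes between them. The promoters from RefSeq (GRCm38.p6) are shown because the 2 neighbours were found at their highest levels in different cells. Each runs from 250 bases before the start of the gene to 50 bases after it, on the strand of the gene, and capitals mark the motifs that were found.
Guca2a, chr4:119637482-119637781, plus strand: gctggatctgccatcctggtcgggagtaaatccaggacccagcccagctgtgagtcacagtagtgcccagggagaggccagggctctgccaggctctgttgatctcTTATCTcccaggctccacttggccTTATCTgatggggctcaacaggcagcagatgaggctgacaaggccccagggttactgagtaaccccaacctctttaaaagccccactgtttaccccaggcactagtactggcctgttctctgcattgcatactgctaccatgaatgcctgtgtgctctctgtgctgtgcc
Guca2b, chr4:119658896-119659195, minus strand: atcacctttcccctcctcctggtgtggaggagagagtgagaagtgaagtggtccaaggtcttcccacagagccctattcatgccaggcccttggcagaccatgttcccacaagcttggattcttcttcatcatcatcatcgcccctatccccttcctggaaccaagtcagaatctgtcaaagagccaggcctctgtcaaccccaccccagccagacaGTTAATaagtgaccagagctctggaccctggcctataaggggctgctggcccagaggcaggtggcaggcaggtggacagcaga
The 4 motifs searched, on both strands, were AGATAA, a letter run bound by factors of the GATA family, GTTAAT, a part of the site of HNF1, TTTAT, known for the CDX factors, and TATAAA, the TATA box. AGATAA stood on the other strand of the Guca2a promoter at 2 places, 144 and 120 bases before the start. It occurs at least once in 11.2% of 32851 promoters of that length and at 2 or more places in 1.15%. GTTAAT stood once in the Guca2b promoter, 33 bases before the start, and occurs in 7.10% of promoters. TTTAT, found in 40.01% of all promoters, and TATAAA, found in 13.6%, were not found in either window. No marked motifs overlap, and a match of letters shows no binding.

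The data hold 1028 anterior cells (568, 198 and 262 from mice 1, 2 and 3) and 1015 posterior cells (511, 280 and 224). UMIs per sample were between 1640578 and 3157105, with a median per cell between 2766 and 8689.5. Levels are UMIs per 10000 UMIs of the cell (CP10K), averaged over the cells of a sample. A molecule counts once whatever its length, so levels of different genes can be set side by side. Clustering without the pair gave 10 clusters, named from marker lists. Enterocyte-like cells were 763 (clusters 1, 9 and 10), goblet-like cells 639 (clusters 2 and 6), crypt progenitor-like cells 208, enteroendocrine-like cells 109, Paneth-like cells 87 and tuft-like cells 40. Cluster 3, with 197 cells led by Gstm1, Mgst1, Reg3g and Aldh1a1, had no name. Cluster 1 raised 14 of 15 enterocyte markers and cluster 6 raised 12 of 12 goblet markers. Clusters of 1 name differed in depth, with medians of 10006.5, 1503 and 2591 UMIs per cell in clusters 1, 9 and 10, and of 1843.5 and 9569 in clusters 2 and 6. Most cells of mouse 1 in the enterocyte-like class belonged to cluster 10 (41 of 68 anterior and 22 of 38 posterior cells). That cluster raised 3 of 15 enterocyte markers, was led by Gip, a hormone of enteroendocrine cells, and lost its name under another scoring. Samples were made of plates that each held 1 mouse and 1 region, so sample and plate cannot be told apart in mice 2 and 3. No plate held both regions, so in every mouse a difference between regions is also one between plates.

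By the mean over mice, the 2 ligands were highest in different cells, guanylin in goblet-like and uroguanylin in enterocyte-like cells. These levels describe clusters found in the same cells and were not tested. In goblet-like cells, which secrete mucus, Guca2a had 22.5, 20.1 and 17.6 CP10K in anterior mice 1, 2 and 3, against 31.0, 99.45 and 39.1 CP10K in posterior mice. In enterocyte-like cells, the absorptive cells, it had 6.77, 9.83 and 6.32 CP10K in anterior mice, against 31.7, 28.7 and 25.8 CP10K in posterior mice. Goblet-like cells led in anterior samples by 1.28 ± 0.73 (SD, n = 3) on the log2 scale over the next class, the Paneth-like cells, and in posterior samples by 0.68 ± 0.40, in 3 of 3 mice each. In posterior mouse 1, though, enterocyte-like cells exceeded goblet-like cells, at 31.7 against 31.0 CP10K. Paneth-like and enterocyte-like cells, next in order, did not differ beyond the spread of the mice, and the Paneth-like values rest on as few as 1 and 2 cells in a sample at a median depth of 894 UMIs. Guca2a averaged 2.63 ± 0.420 CP10K in anterior and 1.77 ± 0.161 CP10K in posterior crypt progenitor-like cells. It averaged 1.62 ± 1.03 and 1.95 ± 0.682 CP10K in enteroendocrine-like cells of the anterior and posterior samples, and 1.23 ± 1.07 and 1.71 ± 2.12 CP10K in tuft-like cells (SD, n = 3 each). Those 3 classes could not be ordered beyond the spread of the mice.

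Within the goblet-like class Guca2a was concentrated in cluster 6, led by Agr2, Spink4 and Retnlb. Cluster 6 had 49.6, 35.6 and 40.3 CP10K in anterior mice and 116.5, 183 and 57.0 CP10K in posterior mice. Cluster 2, led by Ern2, Fer1l6 and Muc2, had 15.4, 9.05 and 1.01 CP10K in anterior mice and 17.75, 49.6 and 16.4 CP10K in posterior mice. Cluster 6 was higher in 6 of 6 samples, by 2.51 ± 1.30 on the log2 scale (SD, n = 6). Cluster 6 cells were also deeper, and the part of depth in this difference was not tested. Cells of cluster 6 were uneven: the median cell had 4.47 to 36.4 CP10K in anterior and 32.9 to 216 CP10K in posterior samples, and the cell at the 90th percentile 93.7 to 161 and 120.4 to 273 CP10K. In posterior cluster 6, all 57 cells with at least 2000 UMIs held more Guca2a than Guca2b molecules, whereas in the anterior one 51 of 68 did.

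Guca2b was highest in enterocyte-like cells, with 31.7, 55.02 and 37.9 CP10K in anterior mice and 39.4, 37.1 and 53.1 CP10K in posterior mice. Goblet-like cells had 7.75, 17.5 and 3.62 CP10K in anterior mice and 7.07, 10.8 and 6.19 CP10K in posterior mice. The unnamed cluster 3 had 26.7, 16.0 and 10.04 CP10K in anterior mice and 25.2, 26.9 and 26.1 CP10K in posterior mice. In posterior samples the lead of enterocyte-like cells over the next, cluster 3, was 0.71 ± 0.28 on the log2 scale and held in 3 of 3 mice. In anterior samples the lead over the next class, Paneth-like cells, was 0.81 ± 1.42 and held in 2 of 3 mice, so it was within the spread. Crypt progenitor-like cells had the lowest mean, 2.53 ± 0.341 CP10K in anterior and 2.84 ± 1.12 CP10K in posterior samples (SD, n = 3 each). Enteroendocrine-like cells averaged 3.15 ± 1.75 CP10K in anterior and 7.72 ± 5.02 CP10K in posterior samples, and tuft-like cells 6.55 ± 1.07 and 6.27 ± 3.70 CP10K. Tuft-like cells exceeded the next class in 3 of 3 mice of each region, enteroendocrine-like cells in anterior samples (by 1.12 ± 0.72 on the log2 scale) and crypt progenitor-like cells in posterior samples (by 0.99 ± 0.43). The tuft-like values rest on 11, 3 and 4 anterior and 16, 1 and 5 posterior cells of mice 1, 2 and 3. Among enterocyte-like cells, the deep cluster 1 exceeded the shallow cluster 9 in 6 of 6 samples, by 1.40 ± 0.50 on the log2 scale for Guca2b and by 1.58 ± 1.03 for Guca2a.

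**Figure D1:**
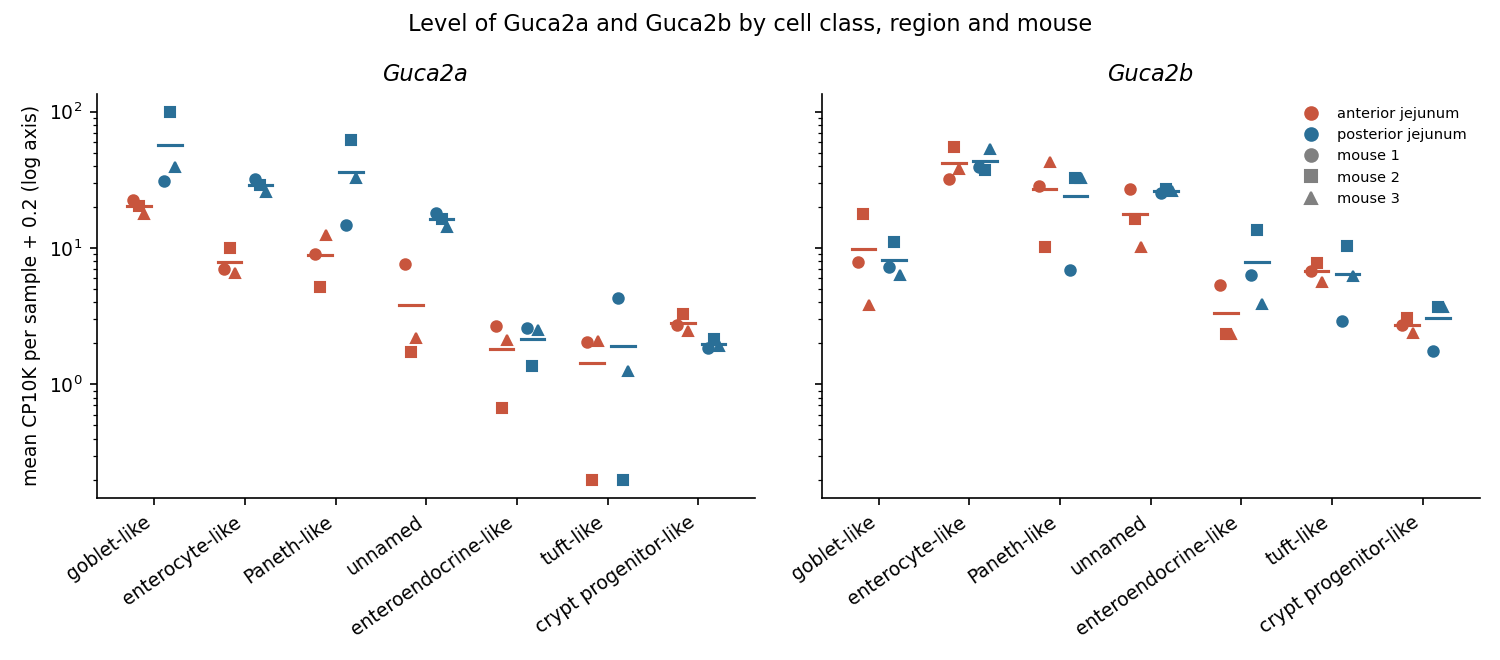
Mean level of Guca2a (left) and Guca2b (right) in each cell class, as CP10K plus 0.2 on a log axis, so that a level of 0 stands at 0.2. Points are the 3 mice of each region and lines their means. Guca2a of goblet-like, enterocyte-like and unnamed cells was lower in all 3 anterior than in all 3 posterior samples. That was so for 3.11, 4.16 and 4.59% of genes in those classes. Paneth-like cells showed the same but were not fitted, and held 50, 2 and 10 anterior and 18, 6 and 1 posterior cells. In crypt progenitor-like cells the mean of Guca2a was higher in all 3 anterior samples, as for 5.4% of genes.

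Of all Guca2a molecules of a sample, goblet-like cells held 37.6 to 67.9% in anterior and 23.1 to 70.3% in posterior samples, while making up 9.92 to 41.9% and 8.57 to 56.8% of the cells sequenced. Enterocyte-like cells held 5.97, 45.5 and 44.5% of the Guca2a molecules of anterior mice 1, 2 and 3, and 7.95, 66.4 and 69.2% of those of posterior mice. In mouse 1 goblet-like cells thus held the larger share of Guca2a, and in mice 2 and 3 enterocyte-like cells did, in both regions. Enterocyte-like cells held 19.1 to 90.6% of the Guca2b molecules of anterior and 20.4 to 90.6% of those of posterior samples, with mouse 1 the lowest in both regions. They made up 12.0, 56.6 and 63.0% of the cells of anterior mice 1, 2 and 3, and 7.44, 78.2 and 71.9% in posterior mice. In mouse 1 the unnamed cluster 3 held 54.3% of the Guca2b molecules in the anterior and 55.3% in the posterior sample. In mice 2 and 3 it held 5.69 to 7.59%.

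Shares of cells with a UMI can depend on depth, so cells were also thinned to 1000 UMIs each. That left out 77 of 763 enterocyte-like and 66 of 639 goblet-like cells. Guca2a was then detected in 22.8 to 44.9% of anterior and 64.7 to 81.0% of posterior enterocyte-like cells (range of 3 samples), against 25.0 to 68.8% and 76.3 to 86.3% before thinning. In thinned goblet-like cells it was detected in 23.1 to 56.9% of anterior and 62.1 to 91.7% of posterior cells. Before thinning, the anterior goblet-like shares were 68.9, 47.2 and 38.5% in mice 1, 2 and 3. These shares fell as the median depth rose (2171.5, 2591.5 and 3331 UMIs). Guca2b was detected in 61.4 to 90.8% of anterior and 73.5 to 86.4% of posterior thinned enterocyte-like cells. Crypt progenitor-like cells, which are not known as a source of either ligand, gave 9.68 to 16.7% of anterior and 7.14 to 8.33% of posterior thinned cells for Guca2a, and 16.7 to 19.4% and 14.8 to 25.0% for Guca2b. Their unthinned shares reached 75.0% for Guca2a and 100.0% for Guca2b at median depths of 10310 to 15672 UMIs. Whether these molecules come from free RNA was not tested. Cell by cell, both ligands were found together in 119 of 186 anterior and 239 of 265 posterior enterocyte-like cells with at least 2000 UMIs. Guca2b alone was found in 50 such anterior and 11 such posterior cells, and Guca2a alone in 1 and 12.

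Guca2a had lower levels in anterior than in posterior enterocyte-like cells in every mouse, but the difference did not pass the threshold across all genes. It averaged 7.64 ± 1.91 CP10K in anterior and 28.7 ± 2.97 CP10K in posterior samples (SD, n = 3 each), an anterior to posterior ratio of 0.266, and the 2 groups did not overlap. The log2 change, anterior minus posterior on the scale of log2(CP10K + 0.2), was -1.90 (SE 0.40, 95% interval -2.78 to -1.03), with a limma adjusted p of 0.513 and an unadjusted p of 0.000497, the 4th smallest of 4859 genes. limma called 0% of the 4859 genes at an adjusted p under 0.05, and 236 (4.86%) had an unadjusted p under 0.05. In 4.16% of genes all anterior samples lay below all posterior ones, as for Guca2a, and 0.453% of genes had a change at least as large. With the mouse as a block, Guca2a had an adjusted p of 0.0624 and limma called 0.0412% of genes (2 of 4859). Goblet markers in these cells, 12 of 12 detected, summed to 187 to 204 CP10K in anterior and 101 to 167 CP10K in posterior samples. Their part in the enterocyte-like levels of Guca2a was not tested.

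In clusters 1 and 9 of the enterocyte-like cells Guca2a was lower in the anterior sample of each mouse. The shallow cluster 9 had 3.58, 4.78 and 5.93 CP10K in anterior mice, against 9.97, 18.9 and 15.15 CP10K in posterior mice. The deep cluster 1 had 38.4, 12.8 and 7.61 CP10K in anterior mice, against 42.3, 41.0 and 35.7 CP10K in posterior mice. There the anterior value of mouse 1, from 9 cells, lay within the range of the posterior samples. Cluster 10 had 1.21, 10.9 and 0 CP10K in anterior mice (41, 9 and 2 cells), against 29.8 and 5.09 CP10K in posterior mice 1 and 2 (22 and 2 cells), so that mouse 2 went the other way, and posterior mouse 3 had 0 cells there. In fits added after the data were seen, the change was -1.34 in cluster 1 (adjusted p 0.843 in limma) and -1.81 in cluster 9 (0.213). Without cluster 10, which another scoring called enteroendocrine-like, the change of the class was -1.56 (adjusted p 0.808). The plates of mouse 1 had 15 and 1.98 CP10K in its anterior sample, against 13.2, 30.5 and 34.98 CP10K in its posterior sample, where the plate at 13.2 held 2 enterocyte-like cells.

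Goblet-like cells showed the same direction for Guca2a with a wider spread. Guca2a averaged 20.1 ± 2.42 CP10K in anterior and 56.5 ± 37.4 CP10K in posterior samples (SD, n = 3 each), and the groups did not overlap. The log2 change was -1.30 (SE 0.39, 95% interval -2.10 to -0.49), with a limma adjusted p of 0.998 and an unadjusted p of 0.00258. limma called 0.0234% of 4275 genes here (1 gene), and 3.11% of genes had all anterior samples below all posterior ones. With the mouse as a block the adjusted p was 0.0923, with 0.0468% of genes called. Without posterior mouse 2, at 99.45 CP10K from 24 cells, the change was -0.80. Mouse 1 differed least, by -0.46, against -2.29 and -1.14 in mice 2 and 3.

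The unnamed cluster 3 was fitted in the same way after its levels had been seen. Guca2a had 7.40, 1.51 and 1.97 CP10K in anterior mice, against 17.8, 16.2 and 14.0 CP10K in posterior mice, without overlap. The log2 change was -2.41 (SE 0.44), with a limma adjusted p of 0.139. limma called 0% of 4859 genes, 275 (5.66%) had an unadjusted p under 0.05, and 4.59% had all anterior samples below all posterior ones. With the mouse as a block the adjusted p was 0.0129 and 0.247% of genes (12) were called. Without anterior mouse 1, the highest of its group, the change was -3.06 (adjusted p 0.000305 in limma, 5 genes called). Leaving out each of the other 5 samples in turn gave -2.50 to -1.99, with limma adjusted p values of 0.174 to 0.999.

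In crypt progenitor-like cells, where both ligands were low, Guca2a had 2.51, 3.09 and 2.28 CP10K in anterior mice, against 1.64, 1.95 and 1.71 CP10K in posterior mice. The anterior means were the higher ones in 3 of 3 mice and the groups did not overlap, as in 5.4% of genes in that direction. These means leaned on single cells: the highest had 99.4, 43.1 and 56.7 CP10K in anterior mice, against 16.6, 8.36 and 11.75 CP10K in posterior mice. The cell at the 90th percentile went the other way, with 2.85, 2.92 and 1.55 CP10K in anterior mice, against 4.83, 3.81 and 4.97 CP10K in posterior mice. The change of the means, 0.51 (SE 0.32), had a limma adjusted p of 0.99. Of 4930 genes, 0% were called and 238 (4.83%) had an unadjusted p under 0.05. With the mouse as a block 0.162% of genes (8) were called, and the adjusted p of Guca2a was 0.819. Enterocyte markers in these cells summed to 58.8 to 116 CP10K in anterior and 77.1 to 84.7 CP10K in posterior samples, and goblet markers to 68.4 to 134 and 20.5 to 58.7. Their part in the progenitor levels of Guca2a was not tested.

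Guca2b did not pass the threshold between regions in any of the 3 named classes, and its 95% intervals span -1.02 to 1.04 on the log2 scale. In enterocyte-like cells it averaged 41.5 ± 12.1 CP10K in anterior and 43.2 ± 8.65 CP10K in posterior samples (SD, n = 3 each), with a log2 change of -0.08 (95% interval -1.02 to 0.87, limma adjusted p 0.996). In goblet-like cells it averaged 9.62 ± 7.12 CP10K in anterior and 8.01 ± 2.44 CP10K in posterior samples, a log2 change of 0.03 (-0.99 to 1.04, adjusted p 0.998). In crypt progenitor-like cells the change was -0.08 (-0.84 to 0.68, adjusted p 0.997). Within the enterocyte-like class the anterior level was the lower one in 2 of 3 mice, and the 2 groups overlapped in each of the 3 classes. In cluster 3 the change was -0.67 (-1.32 to -0.02, adjusted p 0.863).

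**Figure D2:**
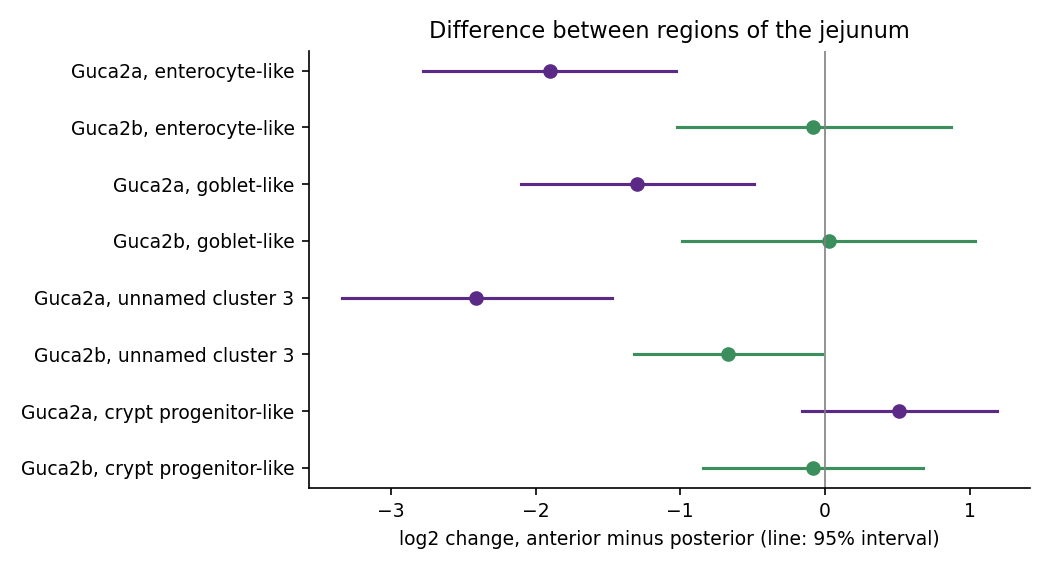
Change of each ligand between regions, as log2 of anterior minus posterior, with its 95% interval (line) from the fit across all genes, for 3 named classes and the unnamed cluster 3. Guca2a lies at -1.90, -1.30 and -2.41 in enterocyte-like, goblet-like and cluster 3 cells and at 0.51 in crypt progenitor-like cells, and none of the 8 changes passed the adjusted threshold.

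Set against each other, the ligands had a different balance in enterocyte-like and goblet-like cells. The log2 ratio of Guca2a to Guca2b in enterocyte-like cells was -2.19, -2.46 and -2.55 in anterior mice, against -0.31, -0.37 and -1.04 in posterior mice. All anterior values lay below all posterior ones, a difference of -1.83 with a two-sided exact permutation p of 0.1, the smallest that 3 against 3 samples can give (adjusted 0.4 over 4 ratio tests, those within mice not counted). In goblet-like cells the ratio was 1.31 ± 1.03 in anterior and 2.64 ± 0.54 in posterior samples (SD, n = 3 each), overlapping, with an exact permutation p of 0.2. Within mice the anterior ratio was the lower one in 3 of 3 in enterocyte-like cells (by -1.88, -2.09 and -1.51) and in 3 of 3 in goblet-like cells (by -0.59, -2.98 and -0.40). A two-sided exact sign-flip permutation over the 3 mice gave p = 0.25 for each, the smallest that 3 pairs can give. Crypt progenitor-like cells had 0.05 ± 0.06 in anterior and -0.55 ± 0.55 in posterior samples, with an exact permutation p of 0.3. In goblet cluster 6 the ratio reached 4.39 ± 0.25 in posterior samples and 3.15 ± 1.22 in anterior samples. Guanylin thus exceeded uroguanylin there in 6 of 6 samples. The larger goblet cluster 2 had 0.93, -1.41 and -2.13 in anterior mice, against 1.22, 2.07 and 0.64 in posterior mice. In its anterior mice 2 and 3 uroguanylin was the higher one. In enterocyte-like cells uroguanylin exceeded guanylin in 6 of 6 samples. The unnamed cluster 3 lay near them, at -2.44 ± 0.73 in anterior and -0.70 ± 0.20 in posterior samples.

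**Figure D3:**
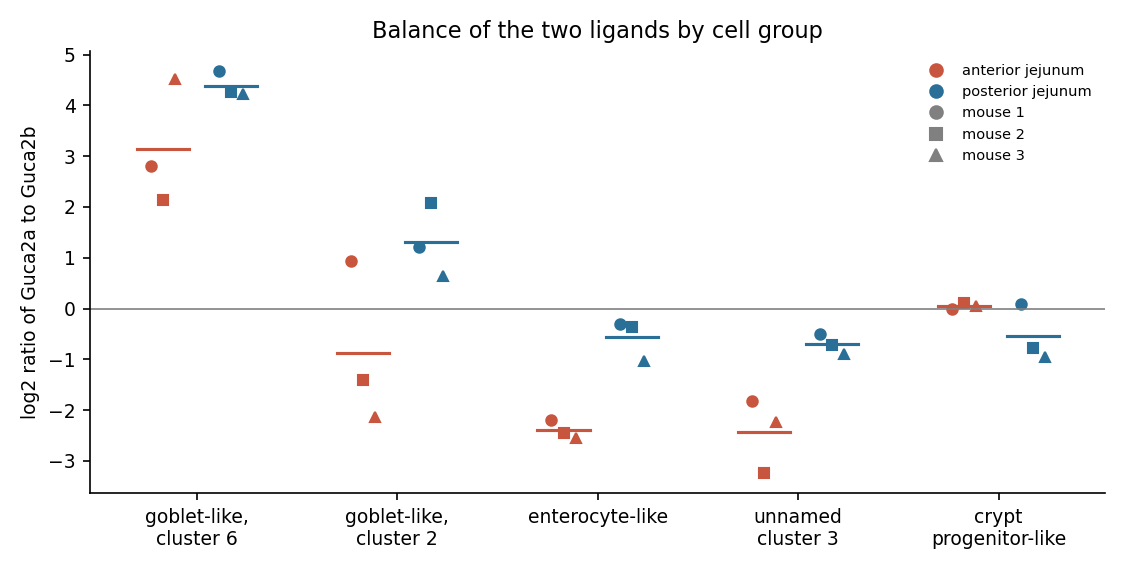
Log2 ratio of Guca2a to Guca2b per sample in 5 cell groups, with points for the 3 mice of each region and lines for their means. Goblet-like cluster 6 lies above 0 in all samples and enterocyte-like cells below 0 in all samples, with anterior enterocyte-like values (-2.55 to -2.19) below the posterior ones (-1.04 to -0.31). Goblet-like cluster 2 lies below 0 in anterior mice 2 and 3 and above 0 in the other samples.

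Position along the villus was read from a score of 7 tip genes minus 6 base genes, and enterocyte-like cells were split into 3 equal bins within each sample. Neither ligand differed past the threshold between upper and lower bin. Guca2a had 5.96, 8.71 and 4.91 CP10K in the upper bin of anterior mice, against 7.21, 10.7 and 6.59 CP10K in the lower bin. In posterior mice it had 44.0, 24.2 and 17.7 CP10K in the upper bin, against 20.0, 33.9 and 33.8 CP10K in the lower bin. The upper bin was the lower one in 5 of 6 samples, and posterior mouse 1 went the other way with 12 and 13 cells a bin. The log2 change, upper minus lower, was -0.21 (SE 0.28, 95% interval -0.79 to 0.38, limma adjusted p 0.709), where limma called 5.31% of 4745 genes. Without posterior mouse 1 it was -0.47 (adjusted p 0.228).

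Guca2b had 28.4, 51.6 and 32.9 CP10K in the upper bin of anterior mice, against 42.6, 56.9 and 45.8 CP10K in the lower bin. In posterior mice it had 67.55, 25.8 and 41.2 CP10K in the upper bin, against 27.0, 49.7 and 61.0 CP10K in the lower bin. Again 5 of 6 samples were lower in the upper bin, with posterior mouse 1 the exception. Its log2 change was -0.23 (SE 0.25, 95% interval -0.75 to 0.28, limma adjusted p 0.625), and -0.54 without posterior mouse 1 (adjusted p 0.0738). The ratio of the ligands did not move between bins beyond the spread, with a difference of 0.02 ± 0.32 (SD, n = 6, two-sided exact sign-flip permutation p 0.875). An interaction of position with region was -0.23 for Guca2a and -0.34 for Guca2b (limma adjusted p 0.977 and 0.975). Of 4745 genes, 0% were called for it and 217 (4.57%) had an unadjusted p under 0.05. Without posterior mouse 1 the interactions were 0.39 and 0.35.

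The direction along the villus depended on how position and depth were handled. Depth moved with position: the median was 1486 to 2193 UMIs per cell in the upper and 3793.5 to 11401 in the lower bins, and cluster 1 gave 62 upper and 169 lower cells. Ranking cells by Apoa4 alone gave changes of 0.95 for Guca2a and 1.02 for Guca2b, and cells with at least 2000 UMIs gave 0.41 and -0.08. Thinned to 1000 UMIs, the changes were -0.44 and -0.17. Within cluster 1, a fit added after the data were seen, both ligands were higher in the upper bin, by 0.95 (adjusted p 0.057 in limma) and 0.66 (0.103), in the 4 samples of mice 2 and 3. A bin is a range of the score, and 150 of the 763 cells lay within 0.1 score units of a boundary.

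**Figure D4:**
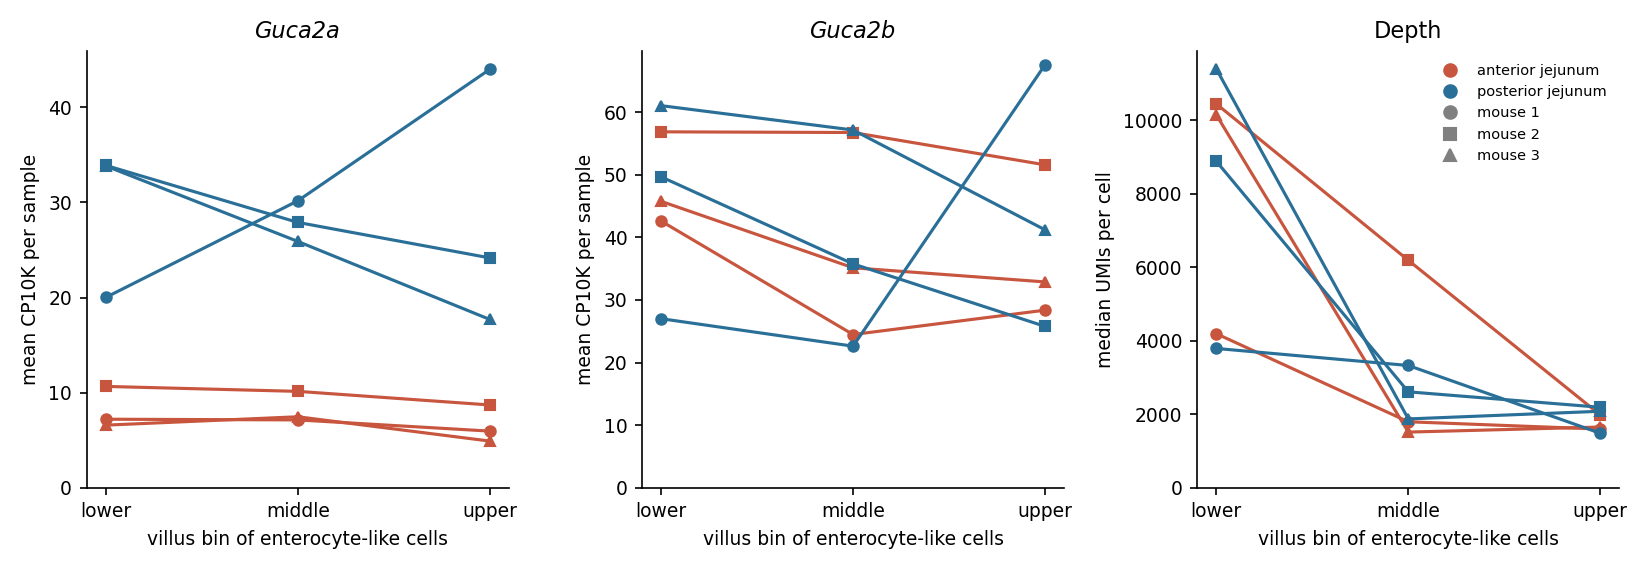
Mean CP10K of Guca2a (left) and Guca2b (middle) and median UMIs per cell (right) in the lower, middle and upper bin of enterocyte-like cells, 1 line a sample. Both ligands were lower in the upper than in the lower bin in 5 samples and higher in posterior mouse 1, while the depth was lowest or near its lowest in every upper bin.

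Of 21 genes listed for the guanylate cyclase C pathway, 15 could be compared between the regions and 6 were not analysed further here. The receptor Gucy2c averaged 2.07 CP10K in anterior and 2.00 CP10K in posterior enterocyte-like cells, far under the levels of the ligands there. Its class mean was highest in enteroendocrine-like cells, 4.06 ± 1.41 CP10K in anterior and 5.78 ± 5.10 CP10K in posterior samples (SD, n = 3 each). There the posterior mice had 3.30, 11.65 and 2.40 CP10K, the highest from 8 cells. In goblet-like cells it averaged 0.477 and 1.01 CP10K. The region change of Gucy2c in enterocyte-like cells was 0.17 (SE 0.47, limma adjusted p 0.996). Prkg2, the kinase, averaged 1.08 CP10K in anterior and 0.470 CP10K in posterior enterocyte-like cells, with a change of 0.79 (SE 0.66, limma adjusted p 0.969).

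Cftr, Slc12a2 and Kcne3 had higher means in crypt progenitor-like than in enterocyte-like cells, and Slc4a4 had lower ones. Cftr, the chloride channel, averaged 1.27 CP10K in anterior and 2.38 CP10K in posterior progenitor-like cells, against 0.556 and 0.355 CP10K in enterocyte-like cells. Slc12a2, which brings chloride in across the basolateral membrane and was also on the stem cell marker list, averaged 3.37 and 4.12 CP10K in anterior and posterior progenitor-like cells, where the ligands were low, and its class mean was higher only in posterior tuft-like cells (8.41 CP10K, set by 1 cell of mouse 2). Kcne3, a subunit of the basolateral potassium channel, averaged 3.69 and 3.996 CP10K there, against 0.399 and 0.238 CP10K in enterocyte-like cells. Slc4a4, a sodium-bicarbonate cotransporter, averaged 0.563 and 0.573 CP10K in anterior and posterior progenitor-like cells, against 0.928 and 1.25 CP10K in enterocyte-like cells. Slc26a6 and Pdzk1 also had higher means in enterocyte-like cells. Slc26a6, an anion exchanger, averaged 6.28 CP10K in anterior and 3.52 CP10K in posterior enterocyte-like cells, against 0.596 and 0.534 CP10K in crypt progenitor-like cells. The scaffold Pdzk1 averaged 2.51 and 3.15 CP10K in anterior and posterior enterocyte-like cells, against 0.283 and 0.144 CP10K in crypt progenitor-like cells.

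Between regions no listed gene passed in any class. In enterocyte-like cells 14 listed genes were tested, 8 with a positive and 6 with a negative change and a median of 0.18, beside 0.11 over all genes. In goblet-like cells the median over 9 listed genes was -0.59, beside 0.03, and in crypt progenitor-like cells it was -0.19 over 14, beside 0.03. Between bins, 1 of 15 listed genes passed, beside the 5.31% of all genes that limma called, so their share was near the background. The scaffold Slc9a3r1 (NHERF1), which tethers Cftr and the sodium-proton exchanger at the apical membrane, was higher in the upper bin by 1.63 (SE 0.29, limma adjusted p 0.00285), in 6 of 6 samples. Cells of the upper bins were also shallower, and the part of depth in the change of Slc9a3r1 was not tested. It had 10.5, 11.7 and 17.5 CP10K in the upper bin of anterior mice, against 2.42, 3.35 and 6.80 CP10K in the lower bin. In posterior mice it had 5.93, 26.0 and 29.9 CP10K in the upper bin, against 2.45, 12.5 and 5.42 CP10K in the lower bin. The list had a median of 0.35, beside -0.06 over all genes tested.

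**Figure D5:**
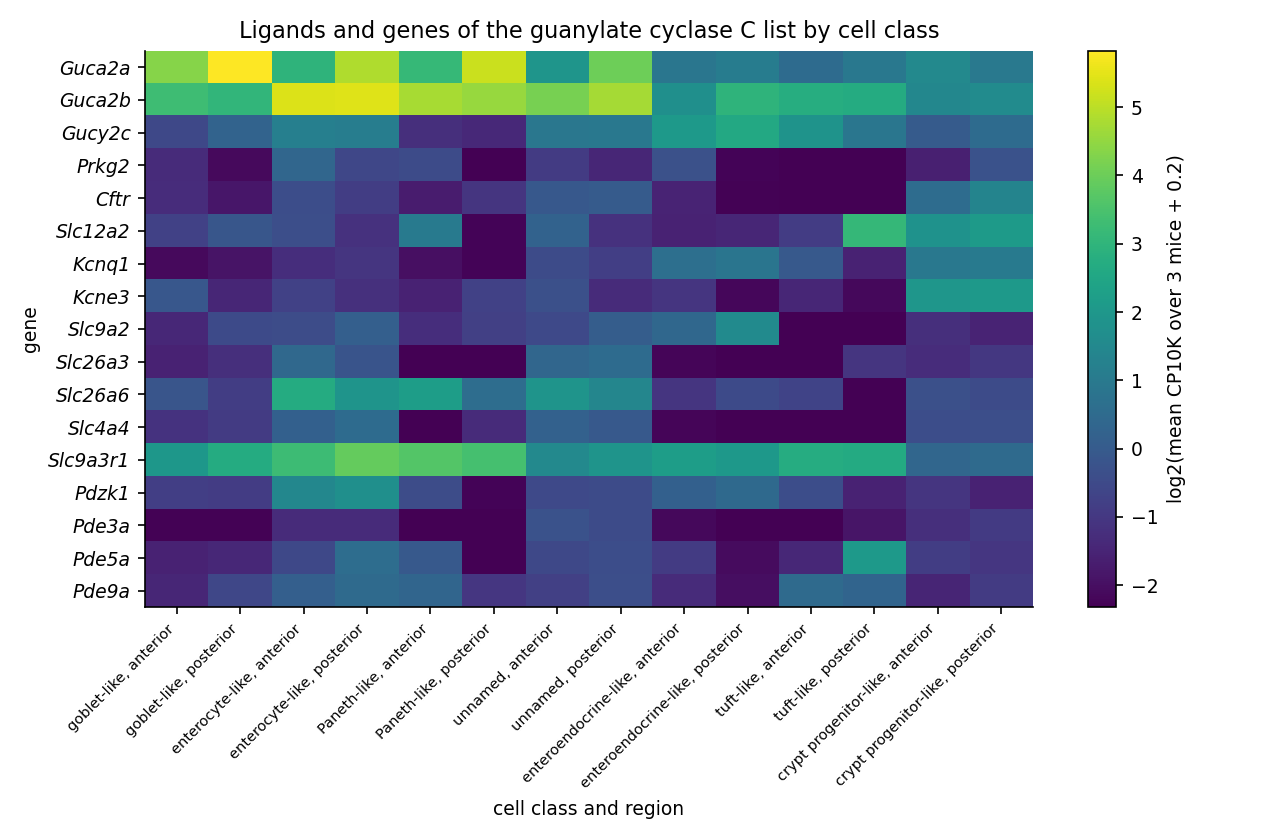
Level of the ligands and of 15 listed genes of the guanylate cyclase C pathway in each cell class and region, as log2 of the mean CP10K over 3 mice plus 0.2. Guca2a and Guca2b stand above the receptor Gucy2c in goblet-like and enterocyte-like cells, and Cftr, Slc12a2 and Kcne3 are brighter in crypt progenitor-like than in enterocyte-like cells.

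Genes most like each ligand over 36 class and sample means differed between the 2. For Guca2b they were Apoa1 (Pearson r 0.92), Slc43a2 (0.87), Mep1b (0.86), Lct (0.85) and Ggt1 (0.85) among 5304 genes. Apoa1 is the main protein of high-density lipoprotein, Lct is lactase, Mep1b a brush border protease and Slc43a2 an amino acid transporter. Apoa1 and Lct were also on the enterocyte marker list that was used to name the clusters. For Guca2a they were Trpm4 (0.74), Ralgps2 (0.72), Ptprr (0.72), Tdrd7 (0.71) and Ifi27l2b (0.67). Trpm4, a calcium-activated cation channel, averaged 4.41 CP10K in anterior and 4.93 CP10K in posterior goblet-like cells, against 3.17 and 3.18 CP10K in enterocyte-like cells. The 2 ligands had r = 0.55 with each other, which ranked Guca2b 51st for Guca2a and Guca2a 156th for Guca2b. These points share mice, plates and cell classes and are given as a description.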

How the data were processed

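MARS-seq was done on 6 samples, anterior and posterior jejunum of 3 mice. Per the submitters' processing notes, GRCm38/mm10 was used with STAR 2.6.1b, bcl2fastq, cutadapt 1.18, UMI-tools 1.0.0 and R 3.5.1 among the tools named. The authors deposited corrected log2 values, 1 table a region. Tested on the values, they were log2(UMI count/size factor + 1) less a linear correction per gene for amplification pool and 2 covariates. Undoing it gave whole UMI counts for 100.0% of values at a tolerance of 0.01, checked on simulated data. Of the deposited values 35.8% (anterior) and 31.4% (posterior) were below 0. The sources used here do not give the filters on genes and cells. Shared genes held 98.0% of UMIs and gave the totals.

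Cells were clustered with scanpy 1.11.5 (1500 variable genes, 25 components, 15 neighbours, Leiden resolution 1). Each marker list was scored by its median log2 level over that of the middle cluster, with 0.5 CP10K added, and the best list with 3 or more markers above 1 gave the name. For tuft-like and enteroendocrine-like cells these include markers measured in 1 table. No doublet caller was run, since cells were sorted singly. Cell names shared between samples numbered 0, while all plates reuse 192 well barcodes. Wells with 0 cells (72) or 10 cells (36) were not used here.

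Levels were tested as log2(mean CP10K + 0.2) per sample with limma 3.58.1 (eBayes with trend, Benjamini-Hochberg over all genes averaging 0.2 CP10K or more, samples with at least 5 cells, adjusted p under 0.05). Fold changes on this scale understate low genes. Villus bins (lower, middle, upper, of equal cell number) used the sample as a block. The step was tested on simulated data. Samples with the same number come from the same mouse, so the numbers pair the samples. Deviations of paired samples correlated at 0.05 to 0.32, and those of samples from different mice at -0.33 to 0.23, an overlapping range. Single ratios used exact permutation over samples. The p-values measure the spread between the mice and their plates. Wilson 95% intervals were computed for shares but shares are given as ranges over samples, and counts of cells cover counting error only. Genes named beyond the pair were the pathway list and the 5 genes of most similar pattern. The pair and all lists were chosen with earlier results of these data known. Alternatives were other pseudocounts, filters, weightings, depths, rankings, samples and clusters.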

Additional observations from a re-analysis of the deposited data

Results flagged for a closer look

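The change of Guca2a between upper and lower bin of enterocyte-like cells was 1.13 in posterior mouse 1, against -0.93 to -0.27 in the other 5 samples, and this sample stood farther from the rest than expected among 6. The same sample stood apart for Guca2b, at 1.32 against -0.94 to -0.14. Chance sets apart about 1 in 20 groups, and both values come from the same 12 lower and 13 upper cells.

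Guca2a was lower in anterior than in posterior enterocyte-like cells of every mouse (-2.20 to -1.52 on the log2 scale), as were 10.9% of genes. Its mean was higher in anterior crypt progenitor-like cells of every mouse (0.37 to 0.62), as for 15.05% of genes, so that the 2 mean changes lay -2.42 apart. Against goblet-like cells (-2.29 to -0.46) the progenitor-like change lay -1.81 apart. Neither of these differences between classes was tested. The cell at the 90th percentile of progenitor-like cells was lower in the anterior sample of every mouse, at 1.55 to 2.92 against 3.81 to 4.97 CP10K.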

How the results depend on the processing

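Guca2a in enterocyte-like cells stayed lower in anterior samples in all 20 alternatives (-2.10 to -1.34 on the log2 scale, adjusted p 0.0624 to 0.998), in goblet-like cells in all 17 (-2.13 to -0.80, adjusted p 0.0923 to 1.0), and in cluster 3 in all 7, while in crypt progenitor-like cells it stayed higher in all 15 (0.38 to 0.74). Some of these alternatives could not move a region change: the mouse as a block, no filter on low values, and a minimum of 10 cells. Putting the pair into the clustering could not either, as every cell kept its name. All of them left Guca2a at -1.90 in enterocyte-like, -1.30 in goblet-like and 0.51 in crypt progenitor-like cells. Of 199 effects recomputed under an alternative, these included, 169 kept direction and side of the threshold, 28 changed sign and 2 came to pass it. Of 82 counts of genes 26 moved by over 1.5 times, and of 24 class levels 8 moved by over 1 SD. With summed UMIs Guca2a was 9.73, 31.4 and 3.53 CP10K in anterior enterocyte-like, goblet-like and crypt progenitor-like cells and 35.7 and 1.95 CP10K in posterior enterocyte-like and progenitor-like cells, and Guca2b 55.5 and 56.8 CP10K in anterior and posterior enterocyte-like cells. With clusters named against the mean of the others, Guca2a was 10.4 CP10K in anterior enterocyte-like cells. The causes were not tested. Both that came to pass were Guca2a in cluster 3, at -2.41 with the mouse as a block and at -3.06 without anterior mouse 1, with single samples left out giving -3.06 to -1.99 (adjusted p 0.000305 to 0.999).

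Guca2b, near 0 between regions, changed sign easily. In enterocyte-like cells it was 0.03 in cells with at least 2000 UMIs, 0.34 in cluster 1, 0.25 in cluster 9, 0.14 in the lower bin, 0.02 without cluster 10, 0.04 without mouse 1, and -0.30 to 0.10 with single samples left out. In goblet-like cells it was -0.47 in cells with at least 2000 UMIs, -0.12 in cluster 6, -0.03 with summed UMIs, -0.03 without mouse 1, and -0.54 to 0.57 with single samples left out. In crypt progenitor-like cells leaving out single samples gave -0.44 to 0.10. Between bins Guca2a was 0.41 in cells with at least 2000 UMIs, 0.95 by Apoa4, 0.95 in cluster 1 and 0.11 with summed UMIs, and Guca2b 1.02 by Apoa4 and 0.66 in cluster 1. The ratio between bins was -0.06 to 0.10 with single samples left out, and the interactions -0.64 to 0.39 for Guca2a and -0.77 to 0.35 for Guca2b.

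With the mouse as a replicate block, genes called between regions numbered 2 in enterocyte-like, 2 in goblet-like, 8 in crypt progenitor-like and 12 in cluster 3 cells, against 0, 1, 0 and 0 without it, and the block changed no call of the pair or its ratio other than that of Guca2a in cluster 3. Enterocyte-like cells gave 2 calls in cluster 9, 1 in the upper bin, 3 without mouse 1 and 0 to 1 with single samples left out. Goblet-like cells gave 0 in cells with at least 2000 UMIs, 0 in cluster 6 and 0 to 2 with single samples left out, crypt progenitor-like cells 0 to 2 and cluster 3 0 to 5. Between bins 252 genes were called, against 156 in cells with at least 2000 UMIs, 145 with 2 bins, 32 by Apoa4, 466 with summed UMIs, 141 when thinned and 87 to 312 with single samples left out. Fits by cluster, bin or cluster 3, without cluster 10, and of bins without mouse 1, and the block of the ratio, were chosen after seeing the data. Within cluster 1 the bins lacked both samples of mouse 1, with too few cells. Small classes, down to 1 Paneth-like or tuft-like cell in a sample, limit the order of the low classes.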

Other observations

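Among the villus bins of enterocyte-like cells, centred within each sample (18 values), the genes most like Guca2a were Hsd17b2 (Pearson r 0.93), a steroid dehydrogenase, Slc5a11 (0.87), a sodium-coupled inositol transporter, Svip (0.86), Pcbp2 (0.86) and Slc25a11 (0.86). For Guca2b they were Lgals3bp (0.90), Coa3 (0.89), Cmtm6 (0.89), Gm45774 (0.87) and Fabp2 (0.86), the intestinal fatty acid binding protein. The 2 ligands had r = 0.70 with each other over these points, which share cells and depth, so the values are a description among 4861 genes.

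Of 18 other protein-coding genes annotated within 500 kb of the pair, 5 were measured in both regions. Ybx1, a DNA- and RNA-binding protein, was the highest, with 4.09 CP10K in anterior and 2.88 CP10K in posterior enterocyte-like cells and 7.89 and 7.29 CP10K in crypt progenitor-like cells; Guca2a averaged 7.64 and 28.7 CP10K in anterior and posterior enterocyte-like cells. Ppcs, an enzyme of coenzyme A synthesis, had 1.10 CP10K in anterior and 0.443 CP10K in posterior enterocyte-like cells. Their changes between regions were 0.42 and 0.88 (limma adjusted p 0.993 and 0.967).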
